A study of Mus musculus with 6 samples.

Results

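The genes described here encode the machinery that writes, reads and removes methylation of lysine 9 on histone H3 and the heterochromatin proteins that act with it. They are 32 genes chosen by name, and the data are the H3K9me3 regions that the authors' table assigns to each of them, out of 202553 regions and 16587 gene symbols in the table. Of the 32 genes, 20 had 1 or more regions, 209 in all, and 12 had none. H3K9me3 was profiled in frozen mouse quadriceps femoris by CUT&Tag: an antibody to the mark brings in a transposase, which inserts sequencing adapters into the DNA around it. There were 3 Prr14-KO libraries (replicates 4, 5 and 7) and 3 Prr14-WT libraries (replicates 3, 4 and 8). The kind of Prr14 allele, strain, age and sex of the mice are not given in the sources used here. Nothing in the labels ties a library to its own mouse, so p-values measure the spread between libraries, which may be technical. The libraries held 4324444 to 4707466 counts in Prr14-KO and 4636898 to 4756133 in Prr14-WT. Regions assigned to the 32 genes took 0.0998%, 0.1002% and 0.0962% of the counts of Prr14-KO replicates 4, 5 and 7, against 0.0945%, 0.0978% and 0.0955% in Prr14-WT replicates 3, 4 and 8, and the groups overlapped.

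H3K9me3 is laid down by SET-domain methyltransferases such as SUV39H1, SUV39H2 and SETDB1 and bound by the chromodomains of the HP1 proteins, which in turn recruit more methyltransferase, so that the mark can spread along a stretch of chromatin. KRAB zinc finger proteins bring SETDB1 to transposable elements and to zinc finger genes through TRIM28, while the HUSH complex directs it to other targets. Prr14 encodes a nuclear lamina protein that tethers heterochromatin through HP1. The measurements below are of the mark at the genes for this machinery, not of the expression or activity of their products. A repressive mark does not measure expression, so it cannot check the tissue by its marker genes. Of those looked up, 8 of 11 skeletal muscle fibre genes had regions assigned to them, against 72.3% of all protein-coding genes. So did 3 of 3 fibroblast, 3 of 3 endothelial, 2 of 3 leukocyte, 2 of 2 satellite cell and 2 of 2 fat genes.

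RefSeq (GRCm38.p6) holds promoter windows for 28 of the 32 genes, 44 windows in all, and the 250 bases before the start overlapped a region of the table in 6 windows of 5 genes (13.6% of windows, against 10.6% of 32851 windows genome-wide). These were Dnmt1, Smchd1, Suv39h2, Tasor and Trim24. The windows below are shown because they are the members' windows that overlap a region, and capitals give the bases inside the deposited region, to within 1 base, since the counting of its positions is not stated. They run 5′ to 3′ on the strand of the gene and end at the base before the start site. The second Dnmt1 window, which belongs to a start further down the gene at 20952624 to 20952873, lies under the same region and is not shown. Kdm4b, with a region 4 bp from its start, is among the 4 members with no window. The region covers the start site at Dnmt1 and Suv39h2, and ends short of it at Smchd1, Tasor and Trim24.
Dnmt1, chr9:20952980-20953229, minus strand: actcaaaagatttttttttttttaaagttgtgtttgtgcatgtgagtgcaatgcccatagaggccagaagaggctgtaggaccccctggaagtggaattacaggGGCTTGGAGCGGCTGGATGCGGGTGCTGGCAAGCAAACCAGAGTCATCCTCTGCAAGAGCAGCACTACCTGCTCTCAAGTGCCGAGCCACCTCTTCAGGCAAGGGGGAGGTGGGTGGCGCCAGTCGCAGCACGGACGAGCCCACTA
Smchd1, chr17:71475344-71475593, minus strand: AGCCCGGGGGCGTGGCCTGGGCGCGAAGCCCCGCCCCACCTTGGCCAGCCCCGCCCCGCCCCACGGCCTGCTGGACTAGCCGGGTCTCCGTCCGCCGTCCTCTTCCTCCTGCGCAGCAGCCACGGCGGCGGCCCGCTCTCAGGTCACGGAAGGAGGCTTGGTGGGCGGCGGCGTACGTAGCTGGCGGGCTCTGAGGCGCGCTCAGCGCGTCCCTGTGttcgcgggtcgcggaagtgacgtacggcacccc
Suv39h2, chr2:3474987-3475236, minus strand: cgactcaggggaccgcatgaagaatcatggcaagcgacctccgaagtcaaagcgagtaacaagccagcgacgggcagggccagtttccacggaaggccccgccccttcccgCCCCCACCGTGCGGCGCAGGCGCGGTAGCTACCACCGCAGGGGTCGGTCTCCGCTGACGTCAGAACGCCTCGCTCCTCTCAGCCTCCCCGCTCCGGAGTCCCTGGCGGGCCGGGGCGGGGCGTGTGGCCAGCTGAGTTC
Tasor, chr14:27428584-27428833, plus strand: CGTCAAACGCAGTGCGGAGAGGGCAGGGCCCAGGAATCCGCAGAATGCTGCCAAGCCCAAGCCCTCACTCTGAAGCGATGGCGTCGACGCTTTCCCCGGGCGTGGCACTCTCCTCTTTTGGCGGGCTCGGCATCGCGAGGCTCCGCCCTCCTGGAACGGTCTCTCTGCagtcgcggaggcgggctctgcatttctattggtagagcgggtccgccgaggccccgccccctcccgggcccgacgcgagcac
Trim24, chr6:37900237-37900486, plus strand: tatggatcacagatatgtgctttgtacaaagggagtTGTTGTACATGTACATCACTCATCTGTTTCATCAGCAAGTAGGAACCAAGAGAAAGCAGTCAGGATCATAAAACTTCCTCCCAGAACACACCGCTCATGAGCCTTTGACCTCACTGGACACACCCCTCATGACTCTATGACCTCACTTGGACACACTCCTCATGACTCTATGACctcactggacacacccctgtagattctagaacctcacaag

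The Smchd1, Suv39h2 and Tasor windows are rich in the dinucleotide CG, the site of DNA methylation, with 33, 27 and 27 of them in 250 bases. The 2 Dnmt1 windows held 7 in the one shown and 26 in the other, with 146 and 190 bases under the region, and the Trim24 window held 1. Over all members' windows the median was 21.5, over all windows of the table of promoters 6.0, and over all windows that overlapped a region 13.0. The Trim24 window belongs to a start site inside the gene. The window of the first Trim24 start, on the same chromosome at 37870561 to 37870810, held 27 CG dinucleotides and overlapped no region. At Dnmt1 the window of the most upstream start, at 20959889 to 20960138, held 2 and overlapped none. Both genes had a region at an inner start and none in the window of the outer one.

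Regions were spread unevenly over the members. Kdm4c had 62 regions, Prdm2 48, Trim24 30 and Atf7ip 15, together 155 of the 209 (74.2%) and 79.4% of the counts. A gene with a region had a median of 3.0, against 4.0 over all gene symbols of the table and 5.0 over zinc finger genes. The share of members with an assigned region, 62.5%, lay below the 72.3% of 21883 RefSeq protein-coding genes and the 82.3% of 367 zinc finger genes, while the share with a region inside the gene's RefSeq span, 53.1%, was close to the 53.9% of all protein-coding genes. Member genes are longer, with a median span of 44.0 kb against 17.2 kb. These shares are descriptions with no test. Of the 209 regions, 148 were intergenic (70.8%, against 68.0% of all regions with a symbol), 48 lay in exons, introns or untranslated regions (23.0%, against 25.7%) and 13 within 3 kb of a start site (6.22%, against 6.31%). The median width was 319 bp, against 318 bp over all, and the median count per library was 48.0 per kb of region, against 46.3.

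**Figure D1:**
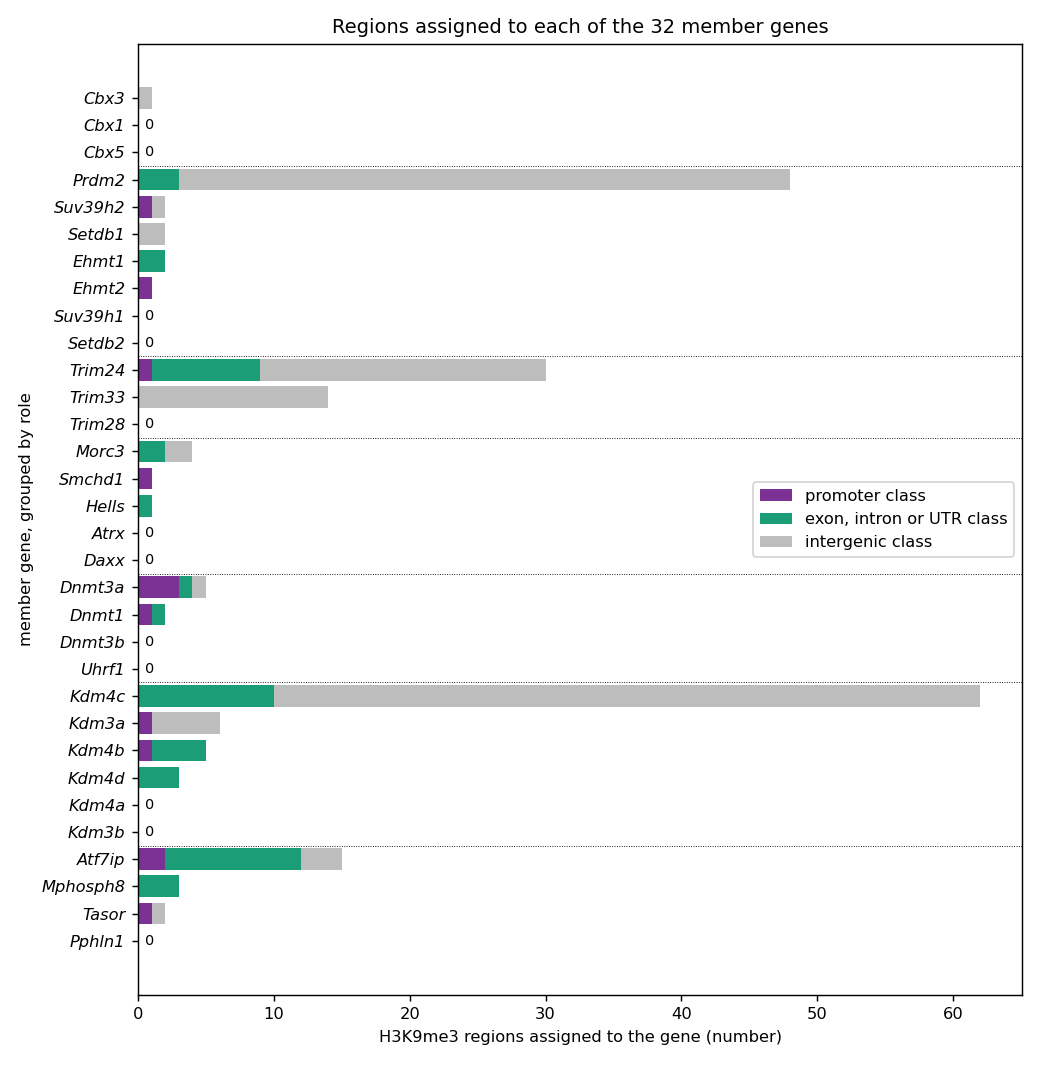
The bars give the number of H3K9me3 regions assigned to each of the 32 genes (x axis), stacked by annotation class, with genes in groups by role (top to bottom: HP1 readers, methyltransferases, TRIM proteins, remodellers and chaperones, DNA methylation, demethylases, SETDB1 partners and HUSH). Kdm4c, with 62 regions, and Prdm2, with 48, stand above the rest, mostly through intergenic regions, and 12 genes have none.

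Most of these regions did not lie in the gene they were assigned to. Only 42 of the 209 regions (20.1%) overlapped the gene they were assigned to, against 25.7% of all regions with a symbol. The annotation class can refer to another gene: 15 of the 48 members' regions classed as exonic, intronic or untranslated (31.2%, against 18.4% over all such regions) lay outside the member. They were 8 regions of Kdm4c, all 3 of Mphosph8 and 1 each of Dnmt1, Dnmt3a, Ehmt1 and Morc3. Conversely, 5 regions in the span of a member carried another symbol. They were 2 in Dnmt3b, named Dnmt3c after the neighbouring DNA methyltransferase gene, 2 in Smchd1, named Gm4707, and 1 in Kdm4a, named St3gal3. Counting spans in place of symbols, 17 members had a region inside them and 10 had neither a region inside nor one assigned.

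The comparison asks whether loss of Prr14 goes with more or less of the mark at these genes. No member passed the test at any level. Levels were tested with edgeR's quasi-likelihood test on counts, over all features of the table, with Benjamini-Hochberg adjustment and a threshold of 0.05. At the level of gene sums, in which all regions assigned to a symbol are added, 0 of 19 members tested passed, with a smallest adjusted p of 1.00, and the background was 0.0393% of 15265 genes. Ehmt2 was the member with a region that had too few counts to be tested. The other levels were sums per gene and class (0 of 29 member sums, background 0.0388%), sums over the RefSeq span (0 of 14, background 0.0291%) and single regions (0 of 164 of the 209, background 0.013%). Neither DESeq2 nor limma-voom called a member at any level, where over all features DESeq2 called 7 gene sums, 9 class sums, 4 span sums and 16 regions and limma-voom 8, 11, 7 and 17. Before adjustment 2 of the 19 gene sums had an edgeR p under 0.05, against 3.58% of all genes, and both had higher values in Prr14-KO. An edgeR p under 0.05 was also found for 2 of the 29 class sums (6.9%, against 3.8% of all class sums), 2 of the 14 span sums (14.3%, against 4.19%) and 4 of the 164 regions (2.44%, against 3.84%). The class sums (Atf7ip and Prdm2, both genic), the span sums (Kdm4b and Prdm2) and 3 of the 4 regions were higher in Prr14-KO. The levels share regions and do not count as separate evidence. The gene and span sums of Kdm4b hold the same counts, as do the genic and span sums of Prdm2, and the genic sum of Atf7ip is part of its gene sum. In DESeq2 the counts under 0.05 before adjustment were 0 gene sums (against 2.48% of all genes), 1 class sum (against 2.6%), 0 span sums (against 3.01%) and 5 regions (against 3.64%). In limma-voom they were 2 gene sums (against 3.24%), 1 class sum (against 3.39%), 1 span sum (against 3.65%) and 4 regions (against 2.91%). The median log2 change, Prr14-KO over Prr14-WT, was 0.04 over the 19 members and 0.0016 over all genes. Of the members, 13 were higher and 6 lower, against 7685 higher and 7580 lower of all genes, and this split was not tested. Members that entered the test did so by a filter on counts, so these figures do not cover all 32. In 1 of the 19 gene sums, that of Kdm4d, every Prr14-KO value was below every Prr14-WT value, and the genotypes were separated in this way, in either direction, in 8.5% of all genes. Such separation was found in 4 of the 29 class sums (13.8%, against 8.79% of all class sums), 2 of the 14 span sums (14.3%, against 9.22%) and 16 of the 164 regions (9.76%, against 9.61%). Of the 4 class sums 1 was higher in Prr14-KO and 3 were lower, and of the 2 span sums that of Prdm2 was higher and that of Kdm4d lower. The margin at Prdm2 was narrow, with 14.92 CPM in Prr14-KO replicate 4 against 14.87 in Prr14-WT replicate 8. Its raw counts overlapped between genotypes, as did its genic sum, which holds the same counts. In the authors' deposited table, none of the 178 member regions with an adjusted p passed 0.05, against 13 of all 163282 such regions (0.00796%). There, 8 of the 209 had a p-value under 0.05 (3.83%, against 3.91% of all regions).

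**Figure D2:**
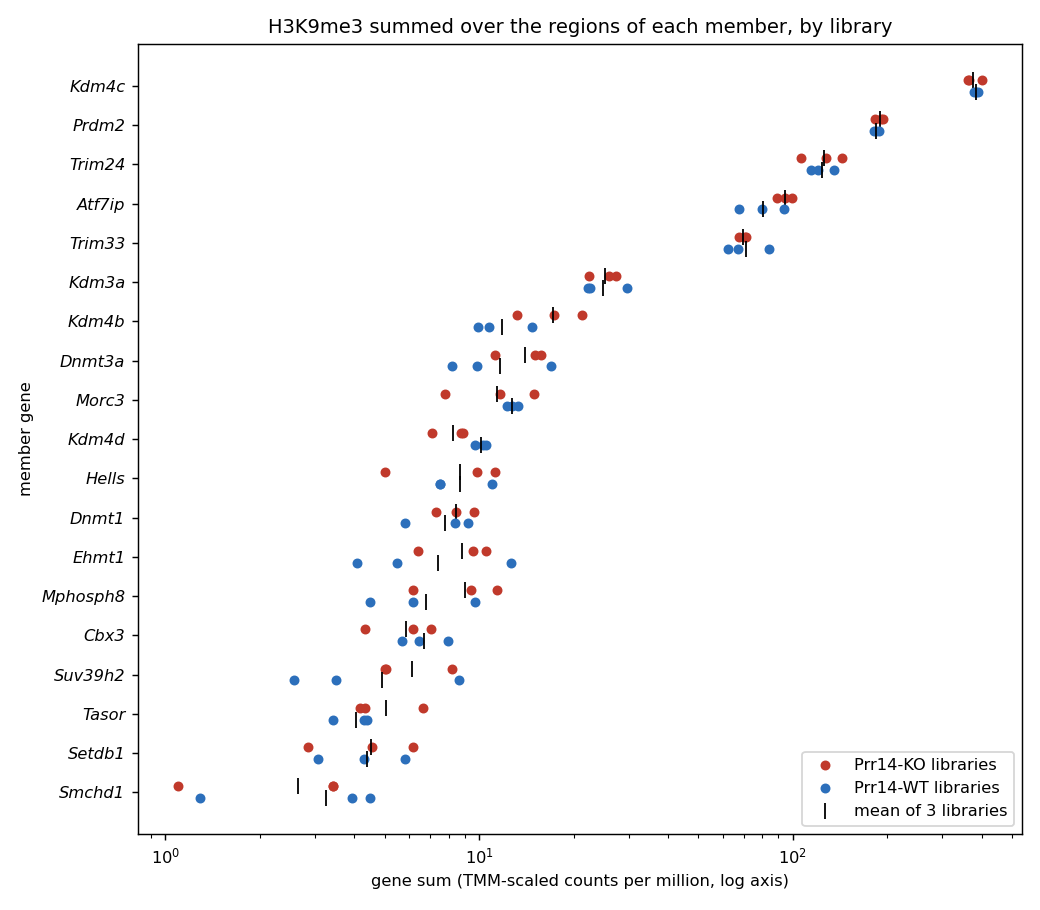
Each row is 1 of the 19 members tested, with the gene sum in TMM-scaled CPM on a log axis, the Prr14-KO libraries above the Prr14-WT libraries as points and the mean of 3 as a tick. The libraries of the 2 genotypes overlap in all members but Kdm4d, whose Prr14-KO values lie below, at 7.08 to 8.90 against 9.67 to 10.5.

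Among the readers, the HP1 genes had 1 assigned region between them. Cbx1 (HP1 beta) and Cbx5 (HP1 alpha) had no region, inside the gene or assigned to it, and the nearest region of the table lay 20606 bp from Cbx1 and 1241 bp from Cbx5. The region nearest to Cbx3 (HP1 gamma) lay 133 bp from the gene but was not assigned to it. Cbx3 had 1 assigned region, intergenic, beyond its 3′ end and 17508 bp from its start. It counted 32, 19 and 27 in Prr14-KO replicates 4, 5 and 7, against 30, 26 and 37 in Prr14-WT replicates 3, 4 and 8. The groups overlapped, and the gene sum had a log2 change of -0.19 (95% interval -0.99 to 0.61).

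Of the 7 methyltransferase genes, Prdm2 had nearly all of the regions. Suv39h1, on X, and Setdb2 had none, and the surroundings of Suv39h1 held 1 region within 100 kb of the gene, 66556 bp away. Suv39h2 had a region across its start site, shown above, which counted 13, 14 and 33 in Prr14-KO replicates 4, 5 and 7, against 29, 11 and 8 in Prr14-WT replicates 3, 4 and 8. Within each genotype 1 library stood far above the other two, and the log2 change of the region was 0.41 (SE 0.47, edgeR adjusted p = 0.998). Setdb1, the methyltransferase that works with TRIM28 and HUSH, had no region inside it and 2 upstream, the nearer of them 16291 bp from the start. Their sum was 4.53 ± 1.65 CPM (counts scaled to a common library size) in Prr14-KO and 4.39 ± 1.37 in Prr14-WT (SD, n = 3 each). Ehmt1 and Ehmt2, which encode the enzymes GLP and G9a that add 1 or 2 methyl groups, had 2 and 1 regions. The Ehmt2 region, 188 bp from an inner start, was the weakest of the promoter regions, with 3, 8 and 3 counts in Prr14-KO against 0, 13 and 8 in Prr14-WT. Both Ehmt1 regions are classed in a 3′ untranslated region, and the larger lies 6564 bp upstream of an Ehmt1 start, outside the gene. The gene sum of Ehmt1 was 6.37, 9.59 and 10.5 CPM in Prr14-KO, against 4.08, 5.48 and 12.7 in Prr14-WT. The Prr14-WT libraries enclosed those of Prr14-KO, and the log2 change was 0.25 (95% interval -0.46 to 0.96).

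Prdm2, which encodes the SET-domain protein RIZ, lies on chromosome 4 from 143107391 to 143212769. Its 48 regions included 39 beyond its 3′ end, reaching 452656 bp from a start, 6 upstream and 3 inside. Their sum was 193, 192 and 183 CPM in Prr14-KO replicates 4, 5 and 7, against 189, 184 and 181 in Prr14-WT replicates 3, 4 and 8. The values of the genotypes overlapped and lay within a narrow range, and the log2 change was 0.04 (95% interval -0.13 to 0.20). The 3 regions inside Prdm2 gave another picture at low counts. They summed to 28, 51 and 33 counts in Prr14-KO, against 25, 14 and 30 in Prr14-WT, and the log2 change of the class sum was 0.76 (SE 0.38, edgeR adjusted p = 1.00), while that of its 45 intergenic regions was 0.01 (95% interval -0.17 to 0.19). The difference between these 2 sums was not tested. Beyond the 3′ end, the intergenic region at 142960812 to 142961203 counted 33, 28 and 15 in Prr14-KO, against 15, 15 and 14 in Prr14-WT (log2 change 0.85, SE 0.44, edgeR adjusted p = 0.998).

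The SETDB1 partners and HUSH genes differed in how much of the mark they carried. Atf7ip, whose product stabilises SETDB1 in the nucleus, was the member with the most regions inside the gene, 12 of 15 by the authors' gene model. Its RefSeq span on chromosome 6 runs from 136518789 to 136610850, and 4.36% of it was covered by regions, the highest share among the members. The gene sum was 94.7, 99.3 and 89.0 CPM in Prr14-KO replicates 4, 5 and 7, against 79.97, 93.8 and 67.4 in Prr14-WT replicates 3, 4 and 8. The groups overlapped through Prr14-WT replicate 4, which lay above Prr14-KO replicate 7, and the log2 change was 0.23 (95% interval 0.0042 to 0.46, edgeR adjusted p = 1.00). This was 1 of the 2 gene sums with an unadjusted edgeR p under 0.05. The genic and the intergenic regions gave estimates of opposite sign. The genic regions had a log2 change of 0.30 (95% interval 0.05 to 0.56), against -0.15 (95% interval -0.59 to 0.28) for the 3 intergenic regions, and the difference between them was not tested. Its region with the most counts, in an intron at 136583352 to 136584311, counted 107, 114 and 82 in Prr14-KO, against 88, 75 and 87 in Prr14-WT. In CPM, which corrects for the size of the libraries, all 3 Prr14-KO values of that region were above all 3 Prr14-WT values (24.8 ± 4.09 and 19.4 ± 1.51, SD, n = 3 each; log2 change 0.35, SE 0.21, edgeR adjusted p = 0.998). The intron region at 136509527 to 136510251, in the authors' gene model but outside the RefSeq span, counted 46, 57 and 55 in Prr14-KO, against 32, 42 and 26 in Prr14-WT, and the log2 change was 0.74 (SE 0.28, adjusted p = 0.998). It had the second-smallest p of all members' regions. Of the 2 promoter regions of Atf7ip, the one with the most counts held 6, 27 and 4 in Prr14-KO against 18, 4 and 5 in Prr14-WT, so that 1 library of each genotype held most of them, and it was too low to be tested.

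Of the 3 HUSH genes, Tasor had a region just before a start site, Mphosph8 had regions only upstream and Pphln1, which encodes the subunit periphilin, had none. The Tasor start site region, shown above, counted 8, 7 and 5 in Prr14-KO replicates 4, 5 and 7, against 9, 13 and 10 in Prr14-WT replicates 3, 4 and 8. Every Prr14-KO library was lower, at counts too low to enter the test of single regions. The other Tasor region, 21845 bp upstream, stood the other way, with 11, 12 and 24 counts in Prr14-KO against 11, 7 and 6 in Prr14-WT (log2 change 1.05, edgeR adjusted p = 0.998). Mphosph8, whose chromodomain binds H3K9me3, had 3 regions from 11949 to 41368 bp upstream, in introns of another transcript. They summed to 9.45, 11.4 and 6.16 CPM in Prr14-KO against 9.67, 6.13 and 4.504 in Prr14-WT, with overlap, and the log2 change was 0.41 (95% interval -0.30 to 1.12).

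In the TRIM family, only Trim24 had regions inside the gene. Trim28, the gene for the central co-repressor, had no assigned region, and the nearest lay 3585 bp from the gene. For Trim33 the nearest lay farther away, at 10297 bp, but regions around it were assigned to it. Trim33, a relative of Trim24 known from TGF-beta signalling, had 14 regions, all of them intergenic, 5 upstream and 9 beyond its 3′ end, and none inside. Their sum was 70.96, 70.5 and 67.3 CPM in Prr14-KO replicates 4, 5 and 7, against 62.3, 83.7 and 67.1 in Prr14-WT replicates 3, 4 and 8. The Prr14-KO values lay inside the Prr14-WT range, and the log2 change was -0.03 (95% interval -0.27 to 0.22). One of them, at 103393557 to 103394224 on chromosome 3, counted 18, 42 and 40 in Prr14-KO against 16, 17 and 26 in Prr14-WT, where Prr14-KO replicate 4 overlapped Prr14-WT (log2 change 0.84, SE 0.37, edgeR adjusted p = 0.998).

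Trim24 encodes a co-regulator of nuclear receptors and carried regions both inside and upstream. On chromosome 6, 9 regions lay in the gene and 21 upstream, up to 163731 bp from its start. The gene sum was 143, 128 and 106 CPM in Prr14-KO replicates 4, 5 and 7, against 135, 115 and 121 in Prr14-WT replicates 3, 4 and 8. These values overlapped widely, with the highest and the lowest both in Prr14-KO, and the log2 change was 0.03 (95% interval -0.17 to 0.23). Its region with the most counts, upstream at 37829850 to 37831738, held 93, 59 and 65 in Prr14-KO, against 72, 84 and 77 in Prr14-WT (log2 change -0.03, SE 0.22). Of the 8 members' regions with the smallest p, 3 belonged to Trim24, 1 higher and 2 lower in Prr14-KO. The intron region at 37895229 to 37895777 had the smallest p of all members' regions. It counted 33, 27 and 27 in Prr14-KO, against 15, 15 and 9 in Prr14-WT, so that every Prr14-KO library was higher, and the log2 change was 1.22 (SE 0.43, edgeR adjusted p = 0.998). Also in an intron, the region at 37891995 to 37892380 counted 7, 15 and 11 in Prr14-KO, against 17, 14 and 37 in Prr14-WT (log2 change -0.95, SE 0.49, adjusted p = 0.998). Upstream, the region at 37773643 to 37773833 counted 4, 7 and 6 in Prr14-KO, against 17, 14 and 15 in Prr14-WT (log2 change -1.33, SE 0.69, adjusted p = 0.998). The region at the inner start site counted 4, 10 and 17 in Prr14-KO, against 5, 8 and 4 in Prr14-WT, and was too low to be tested.

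**Figure D3:**
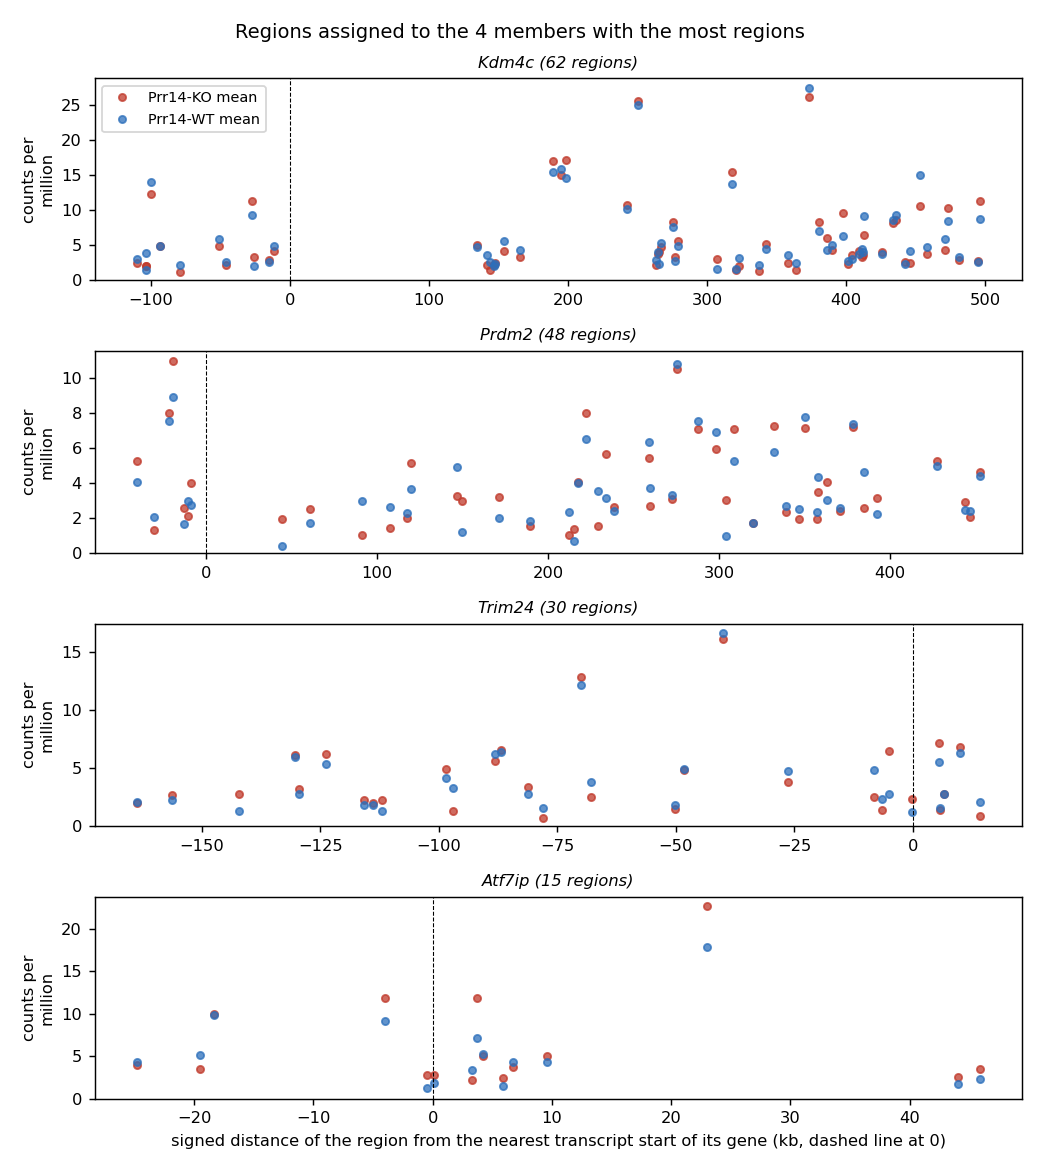
Each point is a region of Kdm4c, Prdm2, Trim24 or Atf7ip, placed by its signed distance from the nearest transcript start of the gene (x axis, kb, dashed line at 0) and by its mean CPM over 3 Prr14-KO or 3 Prr14-WT libraries (y axis, scaled by library totals). Points of the 2 genotypes lie close together at most regions, and the Kdm4c and Prdm2 regions reach 496586 and 452656 bp from a start.

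Of the 5 remodeller and chaperone genes, 3 had assigned regions, 6 in all, and 3 had a region inside the RefSeq span. Over all protein-coding genes these shares were 72.3% and 53.9%. Atrx, on X, and Daxx, the histone H3.3 deposition pair, had no assigned region, and the nearest lay 32231 bp from Atrx and 23304 bp from Daxx. Hells, a remodeller needed for DNA methylation at repeats, had 1 intron region at 38960907 to 38961899 on chromosome 19. It was 993 bp wide and counted 51, 43 and 22 in Prr14-KO replicates 4, 5 and 7, against 35, 50 and 35 in Prr14-WT replicates 3, 4 and 8. The groups overlapped (log2 change of the gene sum 0.01, 95% interval -0.66 to 0.67). Morc3, an ATPase that binds histone H3, had 4 regions, 1 inside, and a sum of 11.4 ± 3.59 CPM in Prr14-KO and 12.8 ± 0.524 in Prr14-WT (SD, n = 3 each; log2 change -0.15, 95% interval -0.71 to 0.40). Smchd1, which acts in X inactivation, had its start site region, shown above, with 5, 15 and 15 counts in Prr14-KO, against 6, 18 and 21 in Prr14-WT. In each genotype 1 library was low, and the log2 change of the region was -0.28 (SE 0.56). The regions inside its span that carry the symbol Gm4707 held more counts than the start site, and the span sum was 51, 50 and 63 counts in Prr14-KO against 55, 48 and 69 in Prr14-WT (log2 change -0.02, 95% interval -0.56 to 0.52).

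Of the DNA methylation genes, Uhrf1, which brings DNMT1 to newly copied DNA, had no region, and the nearest lay 2488 bp away. Dnmt1, the maintenance methyltransferase, had the promoter region with the most counts of all members. It counted 30, 22 and 19 in Prr14-KO replicates 4, 5 and 7, against 11, 20 and 21 in Prr14-WT replicates 3, 4 and 8, with overlap at Prr14-KO replicate 7 (log2 change 0.51, SE 0.43, edgeR adjusted p = 0.998). Its other region, upstream of the gene in an exon of another transcript, counted 14, 15 and 13 in Prr14-KO against 16, 22 and 18 in Prr14-WT, lower in every Prr14-KO library (log2 change -0.35, 95% interval -1.42 to 0.71). Dnmt3a, a de novo methyltransferase, had 3 regions in the promoter class, the most of any member. The one with the most counts, 387 bp before a start, held 15, 18 and 17 in Prr14-KO against 13, 7 and 29 in Prr14-WT, the spread being wider in Prr14-WT. The gene sum of Dnmt3a was 11.2, 15.7 and 15.1 CPM in Prr14-KO, against 8.17, 9.86 and 16.9 in Prr14-WT, with overlap (log2 change 0.26, 95% interval -0.28 to 0.81). Dnmt3b had no region of its own name. Of the 2 regions in its span named Dnmt3c, the intron region at 153681412 to 153681937 on chromosome 2, singled out after its values were seen, counted 17, 14 and 29 in Prr14-KO against 4, 12 and 9 in Prr14-WT. Every Prr14-KO library was higher there, and the log2 change was 1.33 (SE 0.55, edgeR adjusted p = 0.998). The span sum of Dnmt3b was 21, 26 and 45 counts in Prr14-KO against 12, 23 and 26 in Prr14-WT (log2 change 0.63, 95% interval -0.18 to 1.45).

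**Figure D4:**
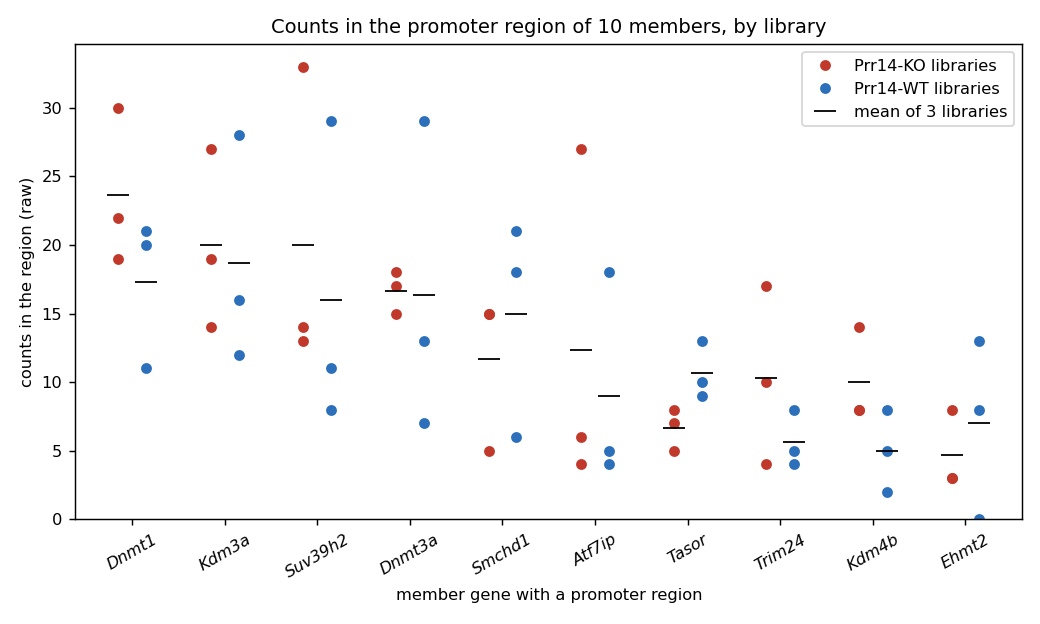
For each of the 10 members with a promoter region, the points are raw counts per library in the promoter region with the most counts (Prr14-KO left, Prr14-WT right), and the dashes are means of 3 libraries. Counts stay at or below 33 in every library, and the genotypes overlap in all but Tasor, whose Prr14-KO counts of 5 to 8 lie below the Prr14-WT counts of 9 to 13, and Kdm4b, where they meet at 8.

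The demethylase genes held both extremes. Kdm4a, another of the H3K9me3 demethylases, had no region of its own name, and Kdm3b had none, the nearest lying 23364 bp away. Kdm4c, whose product removes methyl groups from H3K9me3, had the highest gene sum. Only 2 of its 62 regions lay inside the gene, which covers 163 kb of chromosome 4 from 74242497 to 74405864. Another 12 lay upstream and 48 beyond the 3′ end, as far as 74759792. The 62 regions summed to 402, 361 and 365 CPM in Prr14-KO replicates 4, 5 and 7, against 384, 391 and 378 in Prr14-WT replicates 3, 4 and 8. The Prr14-WT values lay between the highest and the other Prr14-KO values, and the log2 change was -0.03 (95% interval -0.18 to 0.12), the narrowest interval of any member. Its regions with the most counts were intergenic. That at 74635382 to 74637013 counted 118, 118 and 114 in Prr14-KO against 144, 125 and 117 in Prr14-WT, and that at 74512378 to 74514357 counted 119, 110 and 113 against 112, 110 and 129. Both overlapped between genotypes once scaled (log2 changes -0.06 and 0.04). So did the regions at 74451396 to 74452615, with 89, 82 and 57 counts in Prr14-KO against 83, 65 and 70 in Prr14-WT, and at 74460650 to 74461652, with 88, 55 and 86 against 58, 92 and 54. The genic class of Kdm4c, mostly introns of another transcript upstream, was lower in every Prr14-KO library, with 196, 178 and 154 counts against 202, 223 and 224 in Prr14-WT (log2 change -0.24, 95% interval -0.54 to 0.06). Toward the far end, the region at 74715473 to 74716858 counted 52, 47 and 43 in Prr14-KO against 97, 62 and 52 in Prr14-WT (log2 change -0.49, SE 0.25, edgeR adjusted p = 0.998). The region at 74660440 to 74661302 stood the other way, with 47, 45 and 36 against 24, 38 and 27 (log2 change 0.60, SE 0.31, adjusted p = 0.998).

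Kdm4b and Kdm4d encode demethylases of the same family as Kdm4c. Kdm4b was the other gene sum with an unadjusted edgeR p under 0.05, and its 5 regions all lay in the gene. The sum was 13.2, 17.3 and 21.2 CPM in Prr14-KO replicates 4, 5 and 7, against 9.89, 10.7 and 14.8 in Prr14-WT replicates 3, 4 and 8. Prr14-KO replicate 4 lay below Prr14-WT replicate 8, and the log2 change was 0.54 (SE 0.25, 95% interval 0.04 to 1.05, edgeR adjusted p = 1.00). Its start site region counted 14, 8 and 8 in Prr14-KO against 5, 8 and 2 in Prr14-WT. The intron region at 56359684 to 56359853 on chromosome 17 was singled out after its values were seen. It counted 14, 12 and 10 against 6, 5 and 2 (log2 change 1.52, adjusted p = 0.998). Regions of Kdm4b with more counts overlapped between genotypes. That at 56380351 to 56381025 counted 12, 20 and 24 against 3, 16 and 40 (log2 change 0.001). The exon region at 56396955 to 56397284 counted 15, 28 and 27 against 27, 16 and 12 (log2 change 0.44). The exon region at 56401445 to 56401662, too low to be tested, counted 5, 8 and 24 against 5, 4 and 13. Kdm4d had 3 regions, 1 in an exon and 2 in introns. Their sum was 8.79, 7.08 and 8.90 CPM in Prr14-KO, against 9.67, 10.3 and 10.5 in Prr14-WT. All Prr14-KO libraries were lower, the log2 change was -0.30 (95% interval -0.93 to 0.33, edgeR adjusted p = 1.00), and the raw counts were 40, 31 and 39 against 45, 47 and 49. Kdm3a, which acts on H3K9me1 and H3K9me2, had 6 regions, all upstream. The densest of all members' regions was among them, 30.1 kb from a start, at 137 counts per kb, with 31, 51 and 39 counts in Prr14-KO against 41, 49 and 44 in Prr14-WT. The promoter region of Kdm3a, 522 bp before a start, counted 27, 14 and 19 in Prr14-KO against 12, 28 and 16 in Prr14-WT. The gene sum was 22.4, 26.02 and 27.4 CPM in Prr14-KO, against 22.6, 29.6 and 22.3 in Prr14-WT. The groups overlapped (log2 change 0.03, 95% interval -0.35 to 0.41).

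**Figure D5:**
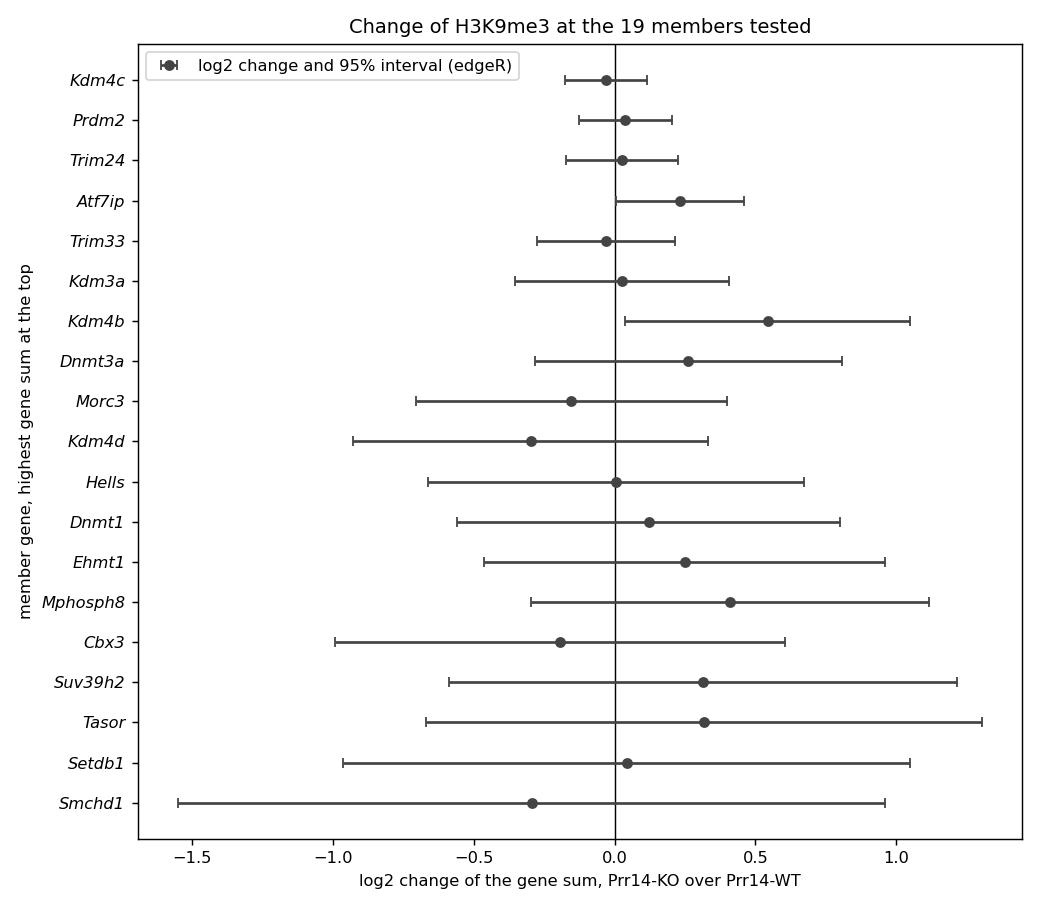
Points are log2 changes of the gene sum, Prr14-KO over Prr14-WT, for the 19 members tested, with 95% intervals from the edgeR fit (x axis) and the highest gene sum at the top. The interval is narrowest for Kdm4c (-0.18 to 0.12) and widest for Smchd1 (-1.55 to 0.96). The lower ends of the Kdm4b and Atf7ip intervals lie just above 0.

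The width of the interval differed between members with many and with few counts. For the members with the most counts, the 95% intervals of the gene sum ended within 0.23 of 0 on the log2 scale for Kdm4c, Prdm2 and Trim24. Regions outside the gene held 97.9%, 96.4% and 75.3% of the counts in these sums. Over the RefSeq span the intervals were wider, at -0.90 to 0.45 for Kdm4c, 0.0014 to 1.49 for Prdm2 and -0.27 to 0.45 for Trim24. For members with few counts, such as Tasor (-0.67 to 1.31), Setdb1 (-0.96 to 1.05) and Smchd1, a change of 1 log2 unit in at least 1 direction is inside the interval, so a change of that size is not excluded. The intervals are for 1 gene at a time and are not adjusted. Other genes of the same machinery, a list of related H3K9 demethylases, deacetylases, methyl-CpG binding proteins, co-factors and chaperones, gave the same count. Of 54 such genes, 41 had a region and 38 were tested as gene sums, and 0 passed in either direction. Among them 2 had an edgeR p under 0.05 before adjustment (5.26%, against 3.58% of all genes). In 1, that of Wiz, the genotypes were separated (2.63%, against 8.5% of all genes). The 2 were named after their values were seen. They were Wiz, a zinc finger partner of G9a and GLP, with 7.09 ± 2.30 CPM in Prr14-KO and 2.95 ± 1.36 in Prr14-WT (SD, n = 3 each; log2 change 1.25, adjusted p = 1.00), and Zfp809, a zinc finger protein that represses retroviruses, with 32.9 ± 7.56 and 41.6 ± 3.61 (log2 change -0.34, adjusted p = 1.00).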

How the data were processed

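H3K9me3 was measured by CUT&Tag in 3 Prr14-KO and 3 Prr14-WT quadriceps libraries, grouped by the genotype label. The build was GRCm38, and the tools listed were BWA, Trimmomatic, bedtools, MACS2, DESeq2 1.6.3 and deepTools, with no settings, per the submitters' processing notes. The sources used here do not give whether pooled or single libraries were used for region calling. Per the file headers, each library has whole-number counts per region, deposited unscaled, and these were tested. The authors also deposited a normalised signal, which is the count divided by 1 factor per library, a score per region, and a log2 fold change with p-value and adjusted p-value. The signal and score entered no test. Gene symbols and region annotations are the authors', and 681 regions have no symbol. The annotations were grouped here into the promoter, genic and intergenic classes.

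Members were found by exact symbol. The 32 genes, the related list and the tests were chosen with earlier results of these data known. Regions were summed per symbol, per symbol and class (promoter within 3 kb, genic, intergenic) and per RefSeq span (GRCm38.p6, by midpoint). Tests on counts ran over all features in edgeR 4.0.16 (R 4.3.3): filterByExpr (minimum count 10, minimum total 15), TMM scaling, a robust quasi-likelihood fit and Benjamini-Hochberg adjustment at 0.05. CPM values are TMM-scaled over the features tested at that level. Standard errors came from the F statistic. Scripts were tested on simulated data. Alternatives were DESeq2 1.42.0, limma-voom (limma 3.58.1), other scalings and filters, and leaving out libraries. Values in every library are given for members past the threshold, the 6 with the highest sums, the 6 with the smallest p, members with a promoter region, and the 8 regions with the smallest p and 6 with the most counts; other members have shorter accounts. The labels name no spike-in, so a uniform change of the mark would be scaled away.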

Additional observations from a re-analysis of the deposited data

How the results depend on the processing

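No member passed at any of the 4 levels under the main settings, and none did in any of 57 alternative counts over these levels: RLE factors, library totals, DESeq2, limma-voom, no filter or a mean of 20 counts, an adjusted p of 0.10, no robust weighting, promoter and genic regions only (gene sums), and leaving out each library. The log2 change of the gene sum kept its sign in 8 of 15 named members under their alternatives, but not its size. It changed sign in the other 7, each time only when a library was left out and never past the threshold; the cause was not tested. With 1 library left out it ran from -0.0523 to 0.2614 for Dnmt1, -0.0447 to 0.8708 for Ehmt1, -0.0527 to 0.1731 for Kdm3a, -0.6759 to 0.069 for Smchd1, -0.0001 to 0.9945 for Suv39h2, -0.0856 to 0.1363 for Trim24 and -0.1174 to 0.1077 for Trim33. Of the others, Atf7ip ran from 0.11 without Prr14-WT replicate 8 to 0.36 without Prr14-WT replicate 4, Kdm4b from 0.37 without Prr14-KO replicate 7 to 0.73 without Prr14-WT replicate 8, Dnmt3a from 0.06 without Prr14-WT replicate 3 to 0.63 without Prr14-WT replicate 8, Mphosph8 from 0.18 without Prr14-WT replicate 8 to 0.76 without Prr14-WT replicate 3, and Tasor from 0.08 without Prr14-KO replicate 7 to 0.43 without Prr14-KO replicate 4. Kdm4d ran from -0.35 to -0.20, Prdm2 from 0.02 to 0.06 and Kdm4c from -0.09 to -0.0041. With promoter and genic regions only, the log2 change was 0.735 for Prdm2 and -0.26 for Kdm4c. No paired analysis was possible because the genotypes share only the replicate number 4. Ehmt2, and all but 164 of the 209 regions, had too few counts to be tested.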
